A study of Mus musculus with 8 samples.

Results

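The chains of integrins and laminins were examined in cancers of the mouse gastric squamous-columnar junction (SCJ), the border between the squamous forestomach and the glandular stomach. They were chosen by gene symbol alone, as the numbered integrin alpha chains and those lettered d, e, l and v (Itgam and Itgax were outside the rule), the integrin beta chains and the laminin alpha, beta and gamma chains, and 35 of the 23361 genes in the expression table met this rule. Of these, 24 encode integrins, 16 alpha and 8 beta chains, and 11 encode laminins, 5 alpha, 3 beta and 3 gamma chains. A subset of 8 integrin chains takes part in receptors for osteopontin, the secreted phosphoprotein encoded by Spp1, namely Itgav, Itgb1, Itgb3, Itgb5, Itga4, Itga5, Itga8 and Itga9.

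Messenger RNA was sequenced from 5 SCJ cancers and from the SCJ of 3 control stomachs. The cancers, Trp53-/-Rb1-/- by their labels, arose in mice that carried the Lgr5-eGFP-Ires-CreERT2 knock-in allele, floxed Trp53 and Rb1 and the Ai9 tdTomato reporter, and that had been given tamoxifen. The controls were wild type mice paired by age. Cre was driven from the Lgr5 locus, so recombination began in Lgr5+ cells, and the stroma, vessels and blood cells of the tumor tissue, which was delimited by tdTomato, are not its target.

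Integrins are pairs of an alpha and a beta chain that span the plasma membrane and tie the actin or keratin cytoskeleton to matrix proteins or to other cells. Laminins are trimers of an alpha, a beta and a gamma chain and form the polymer of the basement membrane, the sheet under every epithelium and around vessels, muscle and nerve. In squamous and glandular epithelium the integrin alpha 6 beta 4 binds laminin in the hemidesmosome, the junction that fixes basal cells to this sheet. In bulk tissue, fewer cells of a type and less RNA per cell cannot be told apart.

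The promoters of 4 chains on which the results turn are shown for reference, 2 chains that were lower in every cancer than in every control (Lamb3 and Itgb6) and 2 that were higher (Itga4 and Itga5). Each is the 250 bases before the annotated start, 5′ to 3′ on the strand of the gene, from RefSeq in GRCm38.p6, the build named mm10 in the submitters' notes. Capitals mark GC boxes, letters GGGCGG on either strand.
Lamb3, chr1:193301744-193301993, plus strand: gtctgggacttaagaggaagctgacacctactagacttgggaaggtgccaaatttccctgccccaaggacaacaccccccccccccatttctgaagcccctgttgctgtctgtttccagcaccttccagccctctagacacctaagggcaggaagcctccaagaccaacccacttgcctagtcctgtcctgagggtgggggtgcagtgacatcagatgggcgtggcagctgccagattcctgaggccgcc
Itgb6, chr2:60722604-60722853, minus strand: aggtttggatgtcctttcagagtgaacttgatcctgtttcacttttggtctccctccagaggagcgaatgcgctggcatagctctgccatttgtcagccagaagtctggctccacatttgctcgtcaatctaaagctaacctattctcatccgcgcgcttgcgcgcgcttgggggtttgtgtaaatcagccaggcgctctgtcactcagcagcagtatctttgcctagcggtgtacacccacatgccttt
Itga4, chr2:79255176-79255425, plus strand: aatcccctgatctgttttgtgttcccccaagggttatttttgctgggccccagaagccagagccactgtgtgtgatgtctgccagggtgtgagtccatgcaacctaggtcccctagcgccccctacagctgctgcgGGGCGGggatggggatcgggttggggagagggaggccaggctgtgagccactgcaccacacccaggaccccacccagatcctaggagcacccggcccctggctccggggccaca
Itga5, chr15:103366792-103367041, minus strand: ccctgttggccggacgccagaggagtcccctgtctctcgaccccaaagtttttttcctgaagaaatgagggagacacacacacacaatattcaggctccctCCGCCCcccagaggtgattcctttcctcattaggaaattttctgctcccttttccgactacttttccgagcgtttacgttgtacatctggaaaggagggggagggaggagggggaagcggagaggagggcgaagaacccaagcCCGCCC

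A promoter at the start given in the expression table (within 100 bases) was found for 19 of the 35 chains. The GC box occurred in 7 of these 19 and in 32.7% of the 32851 RefSeq promoters of the same length. In Itga4 it lay 114 bases before the start, in Itga5 149 and 6 bases before it, and neither Lamb3 nor Itgb6 held one. The GC box was also in Itga3, Itgb1, Itgb5, Lama5 and Lamb1, none of them called with FPKM. Itga6, Itga9, Itgb3 and Itgb4 were among the chains without a promoter at that start. The letters TGANTCA, the AP-1 motif, were in 0 of the 19 and in 6.75% of all promoters, and CACCTG, an E-box bound by zinc finger repressors, was in 5 of the 19 and in 17.2% of all. The E-box was in none of the 4 promoters printed. These matches describe the letters in the window only.

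Expression values were FPKM, which scale fragments by transcript length and by the mapped fragments of the library, rounded to whole numbers in the deposited table. Read numbers were not part of the table, which leaves the depth of every library unknown, and a chain at 0 is described as listed at 0. A 0 can be a failed estimate, since Pgc, a gene of gastric chief cells, was at 28832 in control 1 and listed at 0 in controls 2 and 3. FPKM summed to between 403569 and 573858 in the cancers and to between 887141 and 992550 in the controls, where 39.3% to 44.3% of the sum came from the 10 most abundant genes, against 11.1% to 19.6% in the cancers. Because of this gap each comparison was read on 2 scales, FPKM as deposited and TPM, in which every library has the same sum. Over the 14357 genes tested the median change on the log2 scale was -0.04 with FPKM and 0.81 with TPM, and changes on the TPM scale are read against the latter. Rb1 was at FPKM 4, 4, 5, 6 and 4 in cancers 1 to 5 and at 9, 9 and 10 in the controls, and Trp53 at 12, 22, 12, 30 and 12 against 16, 17 and 19. Rb1 was lower in every cancer with FPKM, but its log2 fold change was -0.05 with TPM (adjusted p = 0.84, limma), and Trp53 overlapped between the groups with FPKM and was called higher with TPM (0.86, adjusted p = 0.020), and values per gene do not show which exons were removed. The numbers of the samples name them, and no label pairs a cancer with the control of the same number.

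Of the 35 chains, 28 passed the filter on low values, 4 were called higher in the cancers, 1 was called lower, and 23 did not pass the threshold (adjusted p under 0.05, limma). All 4 that rose, Itga4, Itgb3, Itga5 and Itga9, belong to the 8 osteopontin-binding chains, and the chain that fell, Itga6, binds laminin. Over all genes tested, 16.2% were called higher and 18.3% lower, and the 28 chains, at 4 and 1, were not above either level. The median log2 fold change of the 28 was 0.25. With TPM 12 of the 28 were called higher and 0 lower, where 50.0% of all genes were called higher and 3.68% lower, and their median was 1.05. Every cancer lay above every control for 4 chains and below for 4, where the same held for 14.4% and 19.8% of all genes tested.

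**Figure D1:**
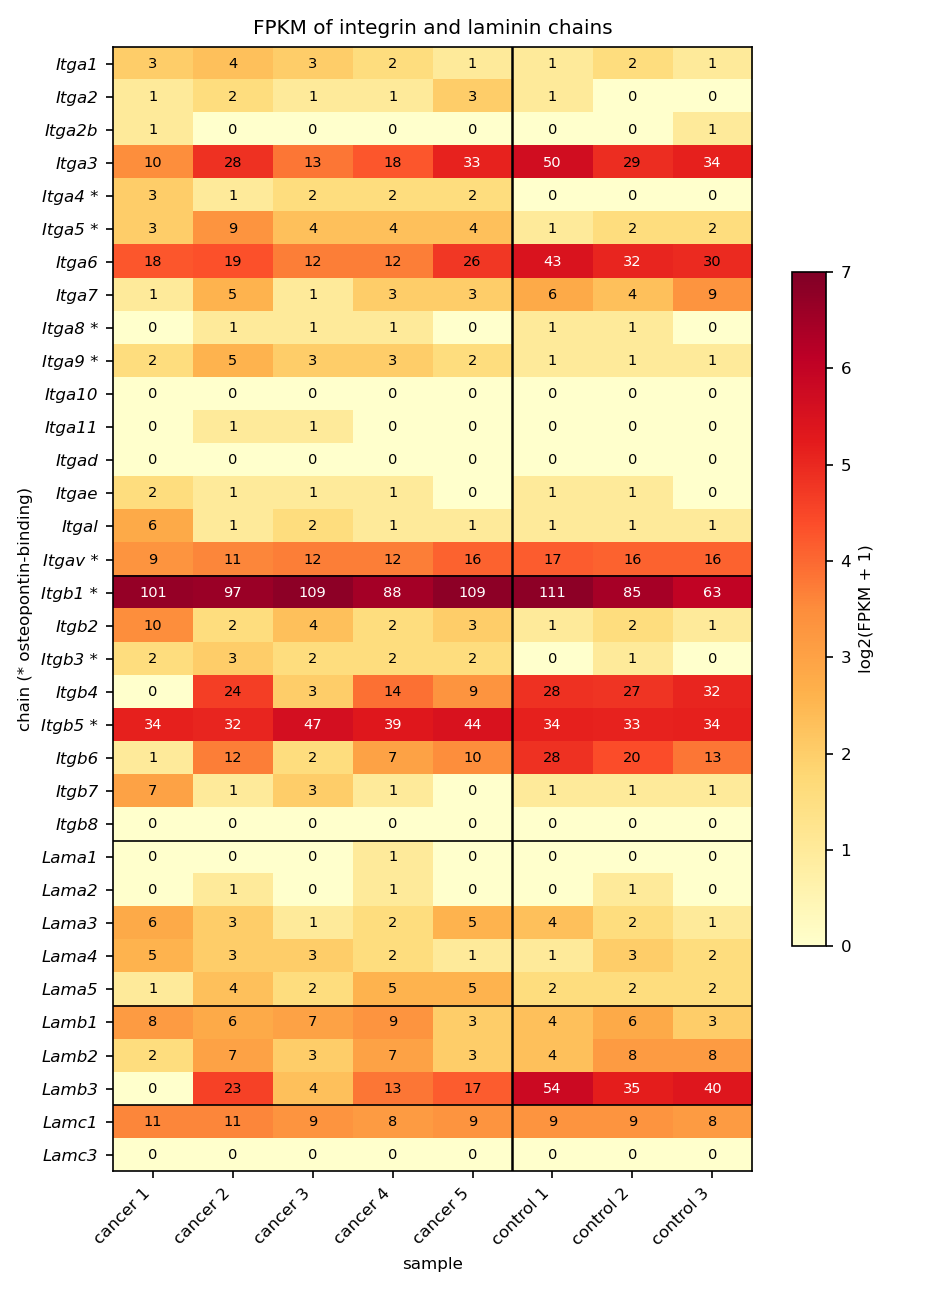
FPKM of integrin and laminin chains (vertical axis) in 5 cancers and 3 controls (horizontal axis), with the deposited value printed in each cell, color on the log2(FPKM + 1) scale, and horizontal lines between chain families. Itgb1 was the most abundant chain in every sample (63 to 111), and Itga10, Itgad, Itgb8 and Lamc3 were listed at 0 in all 8.

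Of the 5 osteopontin-binding alpha chains 3 were called higher in the cancers, each from a low level, beside 16.2% of all genes with FPKM. Itgav was the most abundant of the 5. Itga4, which pairs with beta 1 or beta 7 and binds fibronectin and VCAM1 as well as osteopontin (chromosome 2, 79255426 to 79428988, mm10), was at FPKM 3, 1, 2, 2 and 2 in cancers 1 to 5 and was listed at 0 in all 3 controls. The groups did not overlap, though by a single step of the rounded scale. The difference on the log2(FPKM + 1) scale was 1.55 with a standard error of 0.22 (adjusted p = 0.0028, limma). Its size depends on the pseudocount, since the controls are at 0, and was 4.32 with a pseudocount of 0.1. Itga4 passed the filter on low values through the cancers alone, the group where it was high, so its call and its place among the 4 chains called higher lend no support of their own.

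Itga5, the alpha chain of the classical fibronectin receptor (chromosome 15, 103344286 to 103366748), was at FPKM 3, 9, 4, 4 and 4 in the cancers, against 1, 2 and 2 in the controls. Cancer 2 stood above the other 4, and the lowest cancer was 1 FPKM above the highest control. The means were 4.8 ± 2.39 (SD, n = 5) and 1.67 ± 0.577 (SD, n = 3), and the log2 fold change of 1.07 (standard error 0.31) passed the threshold (adjusted p = 0.034, limma). The call was lost without cancer 3 (adjusted p = 0.062), cancer 5 (0.053) or control 1, 2 or 3 (0.12, 0.073 and 0.071), and with quantile normalization (0.14).

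Itga9, a partner of beta 1 that binds a cryptic site of osteopontin and tenascin C (chromosome 9, 118606709 to 118901003), was at FPKM 2, 5, 3, 3 and 2 in the cancers, against 1 in each control. All 5 cancers were above all 3 controls, again by at least 1 step. The log2 fold change was 0.95 (adjusted p = 0.021, limma, with a standard error of 0.24), and the call was lost when control 1, 2 or 3 was left out (adjusted p = 0.070, 0.068 and 0.066) and with quantile normalization (0.16).

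The other alpha chains of this group did not pass the threshold. Itgav, the shared alpha chain of the vitronectin receptors, was at FPKM 9, 11, 12, 12 and 16 in the cancers, against 17, 16 and 16 in the controls. The cancers were at or below the controls, and cancer 5 tied with 2 of them. Its log2 fold change was -0.44 (adjusted p = 0.084, limma, with a standard error of 0.17) with FPKM and 0.49 (adjusted p = 0.096) with TPM, where its sign reversed and it lay below the median of all genes. Itgav was called lower with array weights (adjusted p = 0.024, limma), without cancer 5 (0.024) and with samples 1 to 3 of each group only (0.028). Itga8, a beta 1 partner typical of smooth muscle and mesenchyme, was at FPKM 0, 1, 1, 1 and 0 in the cancers, against 1, 1 and 0 in the controls, with full overlap and a difference of -0.07 (95% interval -0.93 to 0.80) on the log2(FPKM + 1) scale.

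Of the 3 osteopontin-binding beta chains, the rare one was called higher and the 2 abundant ones did not pass the threshold on the FPKM scale. Of all genes 16.2% were called higher on that scale. Itgb3, the partner of alpha v in the vitronectin and osteopontin receptor of osteoclasts and vessels and of alpha IIb in platelets (chromosome 11, 104608000 to 104670471), was at FPKM 2, 3, 2, 2 and 2 in the cancers, against 0, 1 and 0 in the controls. No cancer was as low as the highest control, and the difference on the log2(FPKM + 1) scale was 1.33 (adjusted p = 0.0083, limma, with a standard error of 0.26). Like Itga4, Itgb3 passed the filter on low values only through the cancers, the group where it was high. Its call and its place among the chains called higher lend no support of their own.

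Itgb1, the common partner of most alpha chains, was at FPKM 101, 97, 109, 88 and 109 in the cancers, against 111, 85 and 63 in the controls. The groups overlapped, with control 1 the highest sample of all, and the log2 fold change was 0.25 (95% interval -0.19 to 0.70, adjusted p = 0.32, limma). Itgb5, a partner of alpha v, was at FPKM 34, 32, 47, 39 and 44 against 34, 33 and 34, with a log2 fold change of 0.20 (95% interval -0.15 to 0.55, adjusted p = 0.32). Both were called with TPM (1.22, adjusted p = 0.0053, and 1.16, adjusted p = 0.0040, limma), where the median of all genes was 0.81, and both were called with quantile normalization.

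Among the 8 osteopontin-binding chains as a group, 4 were called higher and 0 lower with a median log2 fold change of 0.60, and among the 20 other chains tested 0 were called higher and 1 lower with a median of 0.19. With TPM 6 of the 8 and 6 of the 20 were called higher. Over all genes 16.2% were called higher with FPKM and 50.0% with TPM. All 4 chains called higher with FPKM had means of 4.8 or less in the cancers, where 1 FPKM is a large part of the value, and the step between the lowest cancer and the highest control was 1 FPKM for each. Of the 12 chains with a mean FPKM of at least 5 over all samples, 0 were called higher and 1 lower in a fit on such genes only. Of the 9138 genes in that fit, 13.6% were called higher and 24.9% lower. The group was marked for osteopontin with earlier results of these samples known, and its count is not independent evidence. Of the 4 called higher, Itga4 and Itgb3 passed the filter on low values only through the cancers.

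The ligand and its other receptor were measured beside these chains. Spp1 was at FPKM 157, 134, 383, 257 and 242 in the cancers, against 6, 45 and 10 in the controls, and its log2 fold change was 3.85 (adjusted p = 0.0044, limma, with a standard error of 0.62). Cd44, a hyaluronan receptor also described as binding osteopontin, was at 16, 46, 55, 31 and 32 against 8, 10 and 11 (1.69 on the log2 scale, adjusted p = 0.012, limma). Their order among the cancers differed from that of the integrin chains. Cancer 2, the highest for Itga5, Itga9 and Itgb3, was the lowest of the 5 for Spp1, and cancer 1, the highest for Itga4, was the lowest for Cd44.

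**Figure D2:**
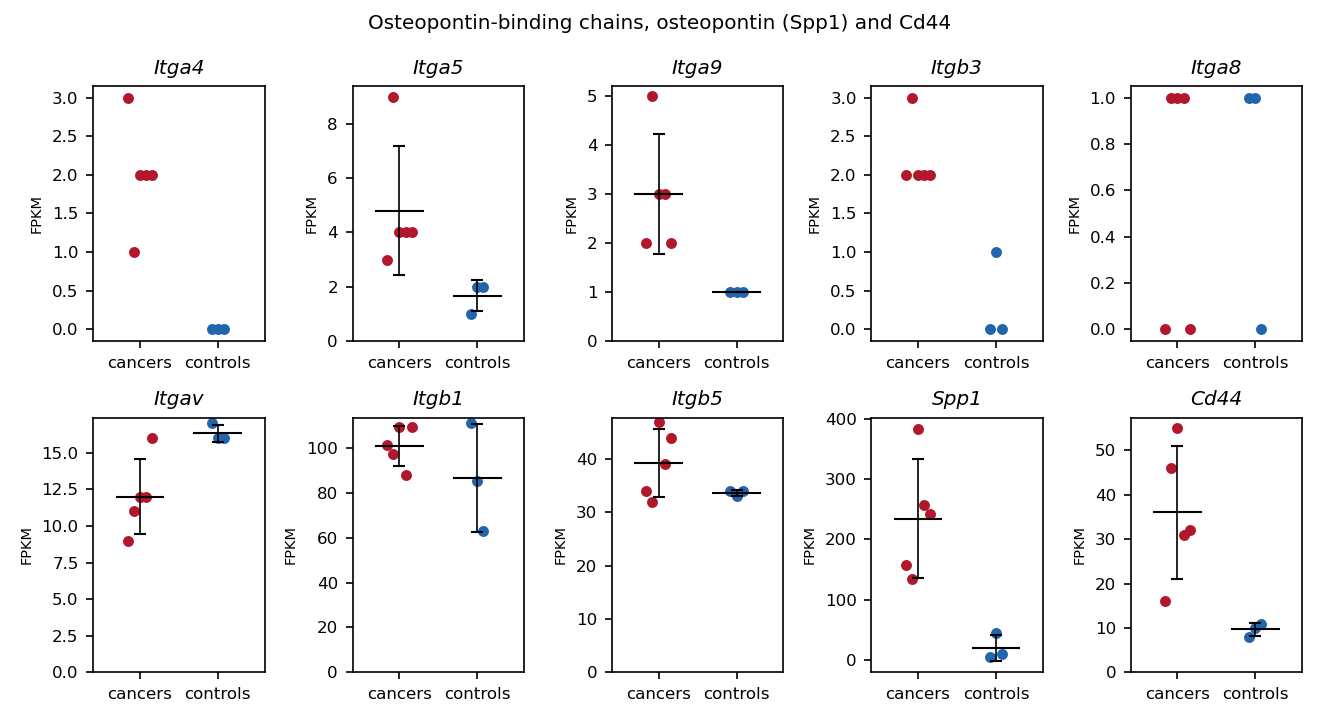
FPKM (vertical axes, linear) of the 8 osteopontin-binding integrin chains, of Spp1 and of Cd44, 1 point per sample, with cancers in red and controls in blue and the mean and SD drawn only where no sample is listed at 0. Itga4, Itga5, Itga9 and Itgb3 separate the groups at low values (cancers 1 to 9, controls 0 to 2), whereas Itga8, Itgb1, Itgb5 and Itgav overlap or tie.

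Of the 4 laminin-binding integrin chains 1 fell and 0 rose, with a median log2 fold change of -1.05 with FPKM and -0.24 with TPM, and 0 were called with TPM. Of all genes 18.3% were called lower with FPKM and 3.68% with TPM. Itga6, which pairs with beta 4 in hemidesmosomes and with beta 1 elsewhere (chromosome 2, 71787083 to 71856758), was at FPKM 18, 19, 12, 12 and 26 in the cancers, against 43, 32 and 30 in the controls. Every cancer lay below every control, with means of 17.4 ± 5.81 (SD, n = 5) and 35.0 ± 7.0 (SD, n = 3) and a log2 fold change of -1.01 (adjusted p = 0.026, limma, with a standard error of 0.27). With TPM the log2 fold change was -0.07 (adjusted p = 0.86), below the 0.81 of the median gene, and the call was lost without cancer 3 (adjusted p = 0.054), without control 1, 2 or 3 (0.10, 0.068 and 0.057) and with quantile normalization (0.089).

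Itgb4, the beta chain particular to the hemidesmosomal receptor (chromosome 11, 115974725 to 116012719), was listed at FPKM 0 in cancer 1 and was at 24, 3, 14 and 9 in cancers 2 to 5, against 28, 27 and 32 in the controls. All 5 cancers were below all 3 controls, but they differed among themselves from 0 to 24. The log2 fold change was -2.13 with a standard error of 0.96 and did not pass the threshold (adjusted p = 0.12, limma), though it did with array weights (0.012).

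Itga3, the partner of beta 1 in a laminin receptor of epithelium, was at FPKM 10 to 33 in the cancers, against 29 to 50 in the controls (a log2 fold change of -0.94, adjusted p = 0.099, limma). Itga7, the laminin receptor of muscle, was at 1 to 5 against 4 to 9 (log2 fold change -1.10, adjusted p = 0.077). With TPM Itga3 was at -0.01 and Itga7 at -0.40, neither past the threshold and both below the median gene. The smooth muscle markers did not differ in one direction. Their sum was 28, 1260, 395, 270 and 46 in the cancers, against 249 to 413 in the controls (Actg2, Acta2 and Des were the most abundant), and Itga7, at 1, 5, 1, 3 and 3, was likewise highest in cancer 2.

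Itgb6, the alpha v partner restricted to epithelium that binds and activates latent TGF-beta (chromosome 2, 60598292 to 60722603), was at FPKM 1, 12, 2, 7 and 10 in the cancers, against 28, 20 and 13 in the controls. The highest cancer was 1 FPKM below the lowest control. The means were 6.4 ± 4.83 (SD, n = 5) and 20.3 ± 7.51 (SD, n = 3), and the log2 fold change of -1.80 (standard error 0.66) did not pass the threshold (adjusted p = 0.067, limma). It passed without cancer 2 (adjusted p = 0.046) and with array weights (0.0060). Itgb8, the other TGF-beta binding partner of alpha v, was listed at 0 in all 8 samples.

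The collagen-binding alpha chains were low throughout. Itga1, typical of smooth muscle and stroma, was at FPKM 3, 4, 3, 2 and 1 in the cancers, against 1, 2 and 1 in the controls (a log2 fold change of 0.59, adjusted p = 0.17, limma). It passed with TPM (1.34, adjusted p = 0.021), without cancer 5 (0.045) and with samples 1 to 3 of each group only (0.028). Itga2, an epithelial and platelet collagen receptor, was at 1, 2, 1, 1 and 3 against 1, 0 and 0, with a difference of 0.98 on the log2(FPKM + 1) scale (adjusted p = 0.056). It passed the threshold with TPM, with a pseudocount of 0.1, with array weights and without control 1. Itga2 passed the filter on low values only through the cancers, so these calls lend no support of their own. Itga11 was listed at 0 in 3 cancers and in every control and at 1 in cancers 2 and 3, and Itga10 was listed at 0 throughout.

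The leukocyte chains were highest in cancer 1. Itgb2, the beta chain shared by the leukocyte integrins, was at FPKM 10, 2, 4, 2 and 3 in the cancers, against 1, 2 and 1 in the controls, Itgal at 6, 1, 2, 1 and 1 against 1 in each control, and Itgb7, the beta chain of gut-homing lymphocytes, at 7, 1, 3, 1 and 0 against 1 in each control. Itgae, the intraepithelial lymphocyte chain, was at 2, 1, 1, 1 and 0 against 1, 1 and 0. None of the 4 passed the threshold (log2 fold changes 1.0, 0.48, 0.40 and 0.25, adjusted p = 0.11, 0.40, 0.62 and 0.63, limma) with FPKM, and Itgb2 passed with TPM (1.82, adjusted p = 0.026) and with array weights (0.046).

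The sum of 7 leukocyte markers was 310 in cancer 1, with 35 to 74 for the remaining cancers and 47 to 59 for the controls. Lcp1, an actin-bundling protein and the most abundant of the 7, was called lower in the cancers (FPKM 38, 17, 17, 18 and 13 against 34, 43 and 41, adjusted p = 0.044, limma), though not with TPM (adjusted p = 0.91). Without Lcp1, a choice made after its values were seen, the sum was 272, 23, 57, 31 and 22 in cancers 1 to 5, and each was above the controls at 13, 13 and 18. Cd52 was at FPKM 88 and Coro1a at 77 in cancer 1, and Cd79a, a B cell gene, at 68, where it was at 0 to 2 in every other sample. Cd3e, another of the 7, was at 6, 1, 1, 1 and 0 in the cancers, against 1, 1 and 2 in the controls. The part of these markers in the leukocyte chains and in Itga4 was not tested. Without cancer 1, Itga4, Itgb3, Itga5 and Itga9 were still called higher. Further leukocyte alpha chains outside the rule, Itgam and Itgax, were low, with Itgam at 1, 1, 1, 1 and 2 against 0 in each control, and Itgax at 3, 2, 6, 2 and 2 against 1, 1 and 0 (adjusted p = 0.035, limma). Both passed the filter only through the cancers, so the call of Itgax lends no support of its own. Itgad was listed at 0 throughout, and Itga2b, the platelet alpha chain, at 0 or 1 in every sample. The platelet marker sum was 7 to 22 in the cancers, against 5 to 8 in the controls, with Gp5 at 0 in all 8, and the sum of 7 endothelial markers was 16 to 58 against 9 to 14. Their part in the Itgb3 result was not tested.

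**Figure D3:**
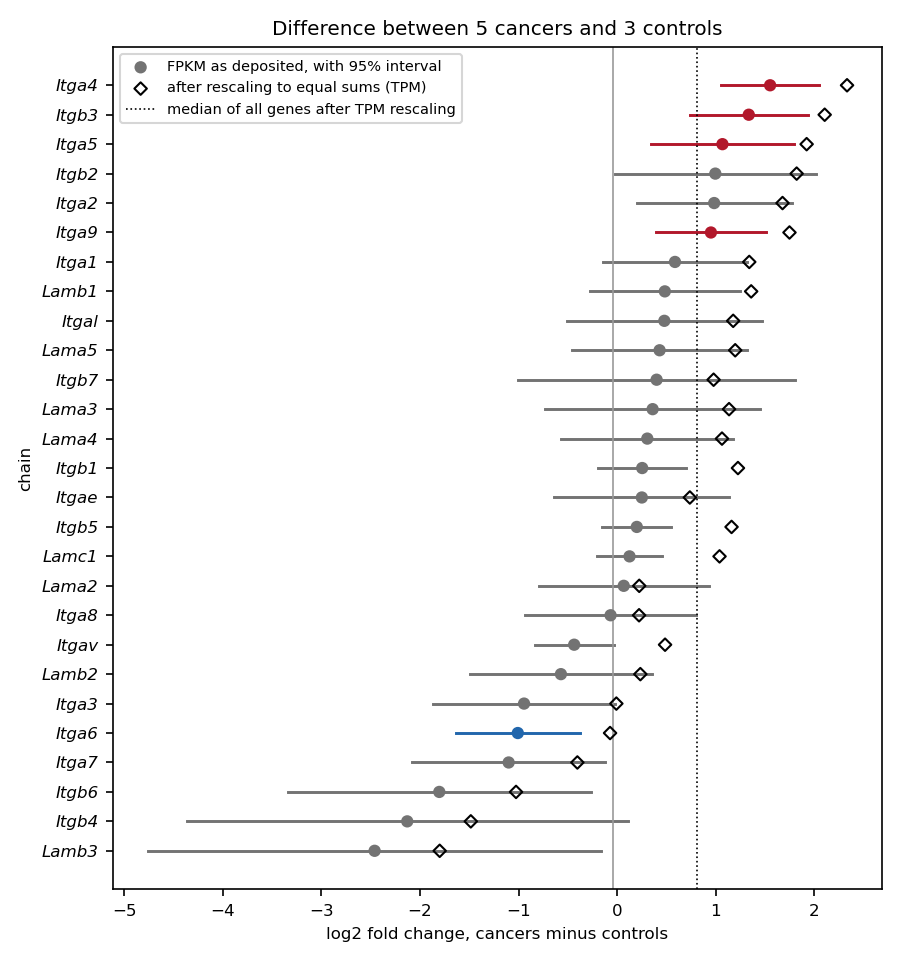
Log2 fold change (horizontal axis, cancers minus controls on the log2(FPKM + 1) scale) of chains tested, as circles with 95% intervals from limma, red where called higher, blue where called lower and gray otherwise, and as diamonds after rescaling to equal sums (TPM). The gray and dotted lines are the medians of all genes, -0.04 with FPKM and 0.81 with TPM, and Itga4, Itgb3, Itga5 and Itga9 lie above both lines on their own scales.

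Among the laminins 0 of the 9 chains tested were called in either direction, beside 16.2% of all genes called higher and 18.3% lower. Lamb3, an epithelial laminin beta chain (chromosome 1, 193301994 to 193343878) was listed at FPKM 0 in cancer 1 and was at 23, 4, 13 and 17 in cancers 2 to 5, against 54, 35 and 40 in the controls. Every cancer was below every control. The log2 fold change was -2.46 with a standard error of 0.99 (adjusted p = 0.088, limma), the furthest below 0 among the 28 chains on this scale. The spread among the cancers was wide beside the difference, and Lamb3 passed the threshold with array weights (adjusted p = 0.012), which lower the weight of libraries far from their group.

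Lama3, an alpha chain of epithelial laminins, overlapped between the groups. It was at 6, 3, 1, 2 and 5 in the cancers, against 4, 2 and 1 in the controls, with its highest value in cancer 1, where Lamb3 was listed at 0 (log2 fold change 0.36, adjusted p = 0.57, limma).

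The chains of the laminins of vessels, stroma and other basement membranes overlapped between the groups. Lamb1 was at FPKM 8, 6, 7, 9 and 3 in the cancers, against 4, 6 and 3 in the controls (a log2 fold change of 0.48, adjusted p = 0.27, limma). Lamc1, the gamma chain of most laminins, was at 11, 11, 9, 8 and 9 against 9, 9 and 8 (0.13, 95% interval -0.20 to 0.45), with the smallest standard error of the 28 chains (0.14). Lamb2, a beta chain of vessel, nerve and muscle basement membranes, was at 2 to 7 against 4 to 8 (-0.57 with FPKM and 0.24 with TPM, neither past the threshold).

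The remaining laminin alpha chains were low. Lama5, the widespread epithelial alpha chain, was at FPKM 1, 4, 2, 5 and 5 in the cancers, against 2 in each control (log2 fold change 0.43, adjusted p = 0.40, limma). Lama4, of vessels and muscle, was at 1 to 5 against 1 to 3 (0.31). Lama2 was listed at 0 or 1 in every sample, Lama1 was listed at 1 in cancer 4 alone, and Lamc3 was listed at 0 throughout. With TPM Lamb1, Lamc1 and Lama5 were called higher (1.36, 1.04 and 1.2, adjusted p = 0.016, 0.0064 and 0.036, limma), each above the 0.81 of the median gene, so that 3 of 9 were called where 50.0% of all genes were.

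The order of the cancers was shared among several of these chains. Itgb4 ran from cancer 1 (0) through 3 (3), 5 (9) and 4 (14) to 2 (24), and the summed FPKM of the gastric gland markers ran in the same order, 692 in cancer 1, 5572 in 3, 15447 in 5, 53276 in 4 and 71637 in 2, with 156290 to 237020 in the controls. Tff1, Gkn2 and Gkn1 were the most abundant of these markers, and Muc5ac was at 0 in cancer 1. Itgb6 and Lamb3 were also lowest in cancer 1, next in cancer 3 and highest in cancer 2, with cancer 5 above cancer 4. Krt19, a keratin of glandular epithelium, was at 13, 1838, 195, 999 and 476 in cancers 1 to 5.

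The squamous markers gave another order. Krt5, a keratin of basal squamous cells, was at FPKM 0, 1, 85, 574 and 57 in the cancers, against 128, 170 and 203 in the controls, and the sum of 7 squamous markers (Krt13, Krt4 and Krt5 the most abundant) was 0, 17, 308, 1645 and 485 against 1553 to 2595. Cancer 2 thus held the highest Lamb3, Itgb4 and Itgb6 of the 5 cancers with a squamous marker sum of 17. Of the 5 simple epithelium markers, Epcam was higher in the cancers (314, 315, 394, 379 and 592 against 183, 159 and 173), Cldn7 rose as well, and Krt8 fell with FPKM but not with TPM (adjusted p = 0.11, limma). Over 5 cancers no correlation was computed, and the part of retained gastric or squamous tissue in these chains was not tested.

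**Figure D4:**
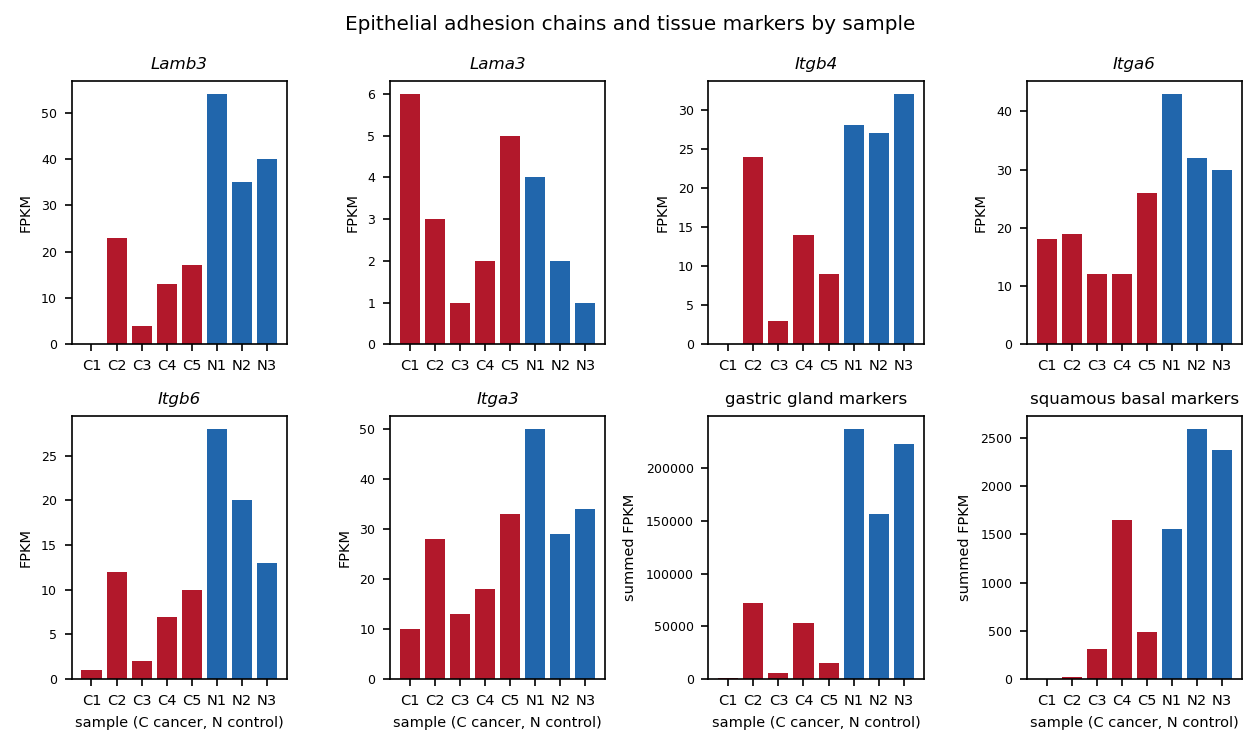
FPKM (vertical axes, linear from 0, scales differing between panels) of Lamb3, Lama3, Itgb4, Itga6, Itgb6 and Itga3 and summed FPKM of gastric gland and squamous basal markers in cancers C1 to C5 (red) and controls N1 to N3 (blue), 1 bar per sample. Lamb3, Itgb4 and Itgb6 are lowest in cancers 1 and 3 and highest among the cancers in cancer 2, as the gastric gland markers are, whereas the squamous basal markers are highest among the cancers in cancer 4.

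The make-up of each chain family within a sample does not depend on the scaling between libraries, and it separated the groups for several chains. Itgb1 made up 56.7% to 65.2% of the summed FPKM of beta chains in the cancers, against 43.8% to 54.7% in the controls, whereas Itgb6 made up 0.645% to 7.02% against 9.03% to 13.8%. Itgb4 gave 0% to 14.0% against 13.8% to 22.2%, where cancer 2 overlapped with the controls. Among alpha chains Itga6 made up 20% to 30.5% in the cancers, against 31.6% to 36.0% in the controls, and Itga5 4.40% to 10.2% against 0.813% to 2.25%. Itga9 made up 2.2% to 5.68% against 0.813% to 1.12% and Itga4 1.14% to 5.08% against 0%. The share of Itgav, 12.5% to 21.4% against 13.8% to 18%, overlapped.

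The shares of the laminin beta chains differed as well. Lamb1 made up 80.0%, 16.7%, 50.0%, 31.0% and 13% of the beta chains in cancers 1 to 5 and 6.45%, 12.2% and 5.88% in the controls, so that every cancer exceeded every control, by least for cancer 5 beside control 2. The summed FPKM of the beta chains was 10 to 36 in the cancers, against 49 to 62 in the controls. The share of Lamb1 thus moved with the level of Lamb3, while the FPKM of Lamb1 overlapped between the groups. Lamb3 made up 0% to 73.9% against 71.4% to 87.1%, where cancer 5 overlapped with control 2. These shares are descriptions without a test, and those from low values carry the error of rounding.

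**Figure D5:**
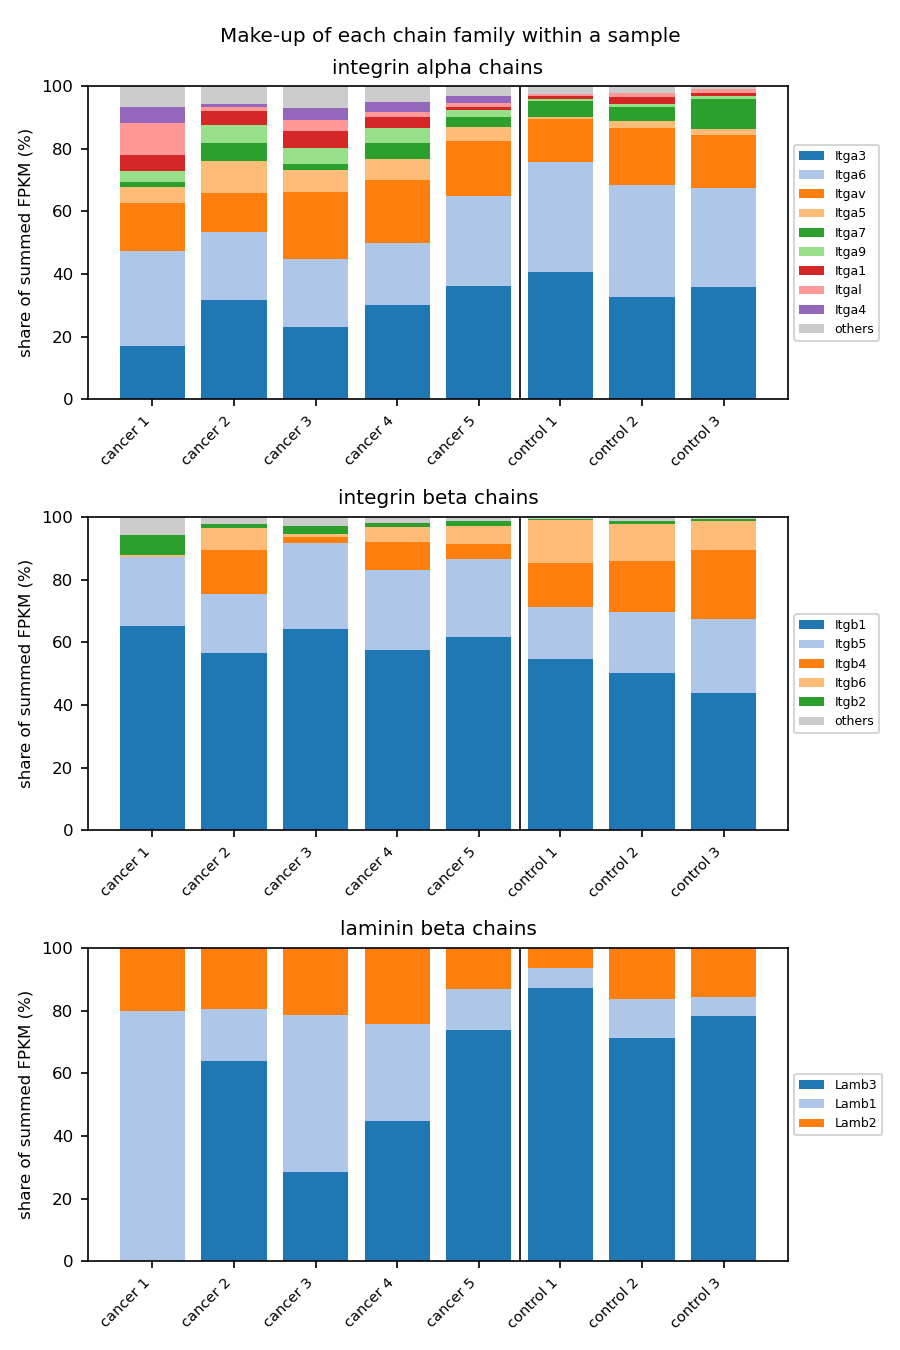
Share (vertical axes, % of the summed FPKM of the family in that sample) of each integrin alpha, integrin beta and laminin beta chain in 5 cancers and 3 controls, 1 stacked bar per sample, with chains that stay under 5% in every sample summed as others. Itgb1 holds 56.7% to 65.2% of the beta chains in the cancers, against 43.8% to 54.7% in the controls, and Lamb1 holds 13% to 80.0% of the laminin beta chains against 5.88% to 12.2%. The FPKM of Lamb1 itself overlap between the groups.

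Chains act as pairs or trimers, and the lowest chain of each known combination gives an upper level for its RNA in the tissue as a whole. For alpha 6 beta 4 this was FPKM 0, 19, 3, 12 and 9 in the cancers, against 28, 27 and 30 in the controls, without overlap. In cancers 1, 3 and 5 and in controls 1 and 2 Itgb4 was the lowest, and in cancers 2 and 4 and in control 3 Itga6 was. For alpha v beta 6 it was 1, 11, 2, 7 and 10 against 17, 16 and 13, again without overlap, and for alpha v beta 3 it was 2, 3, 2, 2 and 2 against 0, 1 and 0, set by Itgb3 in every sample. For alpha v beta 5 it was set by Itgav, with the values of that chain. Itgb1 was the lowest chain in none of its pairs, so that the alpha chain set each of them. Of 22 integrin pairs considered, 3 had a chain listed at 0 in every sample, as had 3 of 14 laminin trimers.

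The genes of the proteins that link integrins to the cell interior were called in both directions. Of 25 genes of this adhesion machinery tested, 3 rose and 8 fell with FPKM, with a median log2 fold change of -0.19, whereas with TPM 11 were called higher and 0 lower, with a median of 0.76, under that of all genes. The shares of all genes were 16.2% higher and 18.3% lower with FPKM and 50.0% and 3.68% with TPM. Zyx, a focal adhesion protein that answers tension, was at FPKM 10, 29, 10, 17 and 20 in the cancers, against 94, 39 and 39 in the controls (-1.66, adjusted p = 0.023, limma), and Kank1 was at 3 to 9 against 12 to 17 (-1.41, adjusted p = 0.012). Both calls were lost with TPM (adjusted p = 0.12 for each). Parvb, an actin-binding partner of the integrin-linked kinase, rose from 1, 1 and 2 to 12, 4, 9, 3 and 3 (1.47, adjusted p = 0.038).

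Of the 6 other hemidesmosome genes 0 were called higher and 1 lower with FPKM, whereas with TPM 2 were called higher (Dst and Cd151) and 0 lower. The shares of all genes, 16.2% higher and 18.3% lower with FPKM and 50.0% higher with TPM, stand near or above these. Plec, the plakin that ties beta 4 to keratin, was at FPKM 9, 22, 10, 12 and 15 in the cancers, against 32, 29 and 32 in the controls (a log2 fold change of -1.20, adjusted p = 0.014, limma), and its call was lost with TPM (-0.28, adjusted p = 0.32). Krt5 and Krt14, the keratins it binds in squamous cells, differed widely among the cancers, and their log2 fold changes of -2.88 and -2.23 did not pass the threshold (adjusted p = 0.29 and 0.37).

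Other genes of the basement membrane were called in both directions. Of 15 genes tested 4 rose and 3 fell, with a median log2 fold change of 0.71, and with TPM 8 were called higher and 0 lower, with a median of 1.54, where all genes gave 16.2% higher and 18.3% lower with FPKM and 50.0% higher with TPM. The network-forming collagen Col4a1 was at FPKM 62, 41, 56, 40 and 14 in the cancers, against 5, 9 and 7 in the controls (2.32, adjusted p = 0.0091, limma), and Col18a1 was at 17 to 69 against 3 to 10 (2.26, adjusted p = 0.012). Bcam, a laminin alpha 5 receptor of the immunoglobulin family, was at 83, 59, 66, 61 and 77 against 10, 15 and 17 (2.24, adjusted p = 0.00079), while its ligand chain Lama5 stayed between 1 and 5. The laminin receptor Dag1 fell with FPKM (20 to 37 against 58 to 78, adjusted p = 0.0068) but not with TPM (adjusted p = 0.32).

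Of 16 integrin ligands outside the laminins tested, 6 rose and 1 fell, with a median log2 fold change of 0.82, beside 16.2% and 18.3% of all genes. With TPM 10 were called higher and 1 lower, beside 50.0% and 3.68%. Fn1, the ligand of alpha 5 beta 1 and alpha 4 beta 1, was at FPKM 32, 44, 36, 23 and 17 in the cancers, against 5, 7 and 6 in the controls (2.10, adjusted p = 0.0030, limma). Tgfb1, whose latent form binds alpha v beta 6, was at 20, 10, 27, 14 and 28 against 3, 2 and 3 (2.42, adjusted p = 0.0029), where Itgb6 was lower in every cancer than in every control. Vcam1, the cell-surface ligand of Itga4 pairs, was at 19, 6, 11, 5 and 11 against 2, 2 and 1 (1.99, adjusted p = 0.0095). Cdh1, the epithelial cadherin bound by alpha E beta 7, was the ligand that fell (52 to 173 against 304 to 390, adjusted p = 0.012).

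The tissue around the chains differed between the groups. The sum of 6 neuroendocrine markers was 8015 to 17801 in the cancers, against 125 to 188 in the controls, and that of 6 glia and nerve markers 11 to 20 against 0 to 2 (Ncam1 at 16, 6, 17, 7 and 16 against 0, 1 and 1), with Sox10 at 0 in all 8 samples. Fibroblast markers summed to 64 to 353 against 77 to 154. Hepatocyte markers gave a sum of 567 in cancer 5, with 1 to 60 for the remaining cancers and 1 for each control. The part of these in the results was not tested. Without cancer 5, Itga4, Itgb3 and Itga9 were still called higher and Itga6 lower.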

How the data were processed

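RNA of 5 cancers and 3 controls was compared. The submitters' processing notes name cutadapt 1.8, TopHat2 2.0.13, Cuffnorm 2.2.1 and mm10. The authors normalized FPKM between libraries, and in the deposited table each value is a whole number, so the unit was taken as a score (rounded FPKM) rather than counts. Genes at FPKM 1 or more in 3 or more samples entered a fit of log2(FPKM + 1) with limma 3.58.1 in R 4.3.3 (lmFit, eBayes with trend), with Benjamini-Hochberg adjustment over all genes tested and a threshold of 0.05. A fold change with a pseudocount of 1 understates the change of low genes. The labels do not say that samples came from separate animals, so p-values measure the spread between these samples. Alternatives were a pseudocount of 0.1, array weights, TPM, other filters, eBayes without trend, a replicate block, quantile normalization and leaving out each sample.

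Members are named, apart from 1 item that is not reported here, with each sample's value for chains past the threshold, osteopontin-binding chains and chains without overlap. From each other pathway list up to 3 genes with the largest change were to be named, with Spp1 and Cd44, and from marker lists up to 3 with the highest mean. Values of other chains and other named genes (Krt5, Krt14, Dst, Cd151, Dag1, Vcam1, Cdh1, Muc5ac, Cd79a, Cd3e, Krt19, Epcam, Cldn7, Krt8, Gp5, Sox10, Ncam1) were added after they were seen. Members and lists were chosen with earlier results of these data known.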

Additional observations from a re-analysis of the deposited data

Results flagged for a closer look

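In a group of 5 samples a value far from the others was sought for each of the 28 chains tested, on the log2(FPKM + 1) scale, and chance alone would mark about 1.4 of them. It was found for 2 chains, both in cancer 2. For Itga5 the gap between cancer 2 (FPKM 9) and the next cancer (4) was 0.756 of the range of the 5 cancers, where 0.71 is the critical value. For Itgb3 the gap was 1, the whole range, since cancer 2 was at FPKM 3 and the other 4 at 2, a difference of a single step of the rounded values. Both chains were still called higher without cancer 2.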

How the results depend on the processing

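The number of chains called higher was 4 in the comparison reported. It was 12 with TPM, 0 of 12 tested with a mean FPKM of at least 5, and 2 to 4 when single samples were left out (2 without control 2 or control 3, where Itga5 and Itga9 were lost). The number called lower was 1. It was 0 with TPM and with quantile normalization, 9 with array weights (among them Itga3, Itga7, Itgb4, Itgb6 and Lamb3, where 6 were called higher, and over all genes 27.2% higher and 29.5% lower), 2 with samples 1 to 3 of each group only (chosen after seeing the data), and 0 to 3 when single samples were left out (3 without cancer 2, where Itga7 and Itgb6 were added, 2 without cancer 5, where Itgav was added, and 0 without cancer 3 or any 1 control, where Itga6 was lost). Leaving out a control brought the calls over all genes to between 9.61% and 10.7% higher and between 7.87% and 9.09% lower. With a replicate block on samples 1 to 3 of each group the counts were 3 higher (Itga4, Itgb3 and Itga1, the last at adjusted p = 0.043, with Itga5 and Itga9 lost at adjusted p = 0.080 and 0.083) and 0 lower. Over all genes the block called 1186 higher and 696 lower, against 2347 and 2366 in the same 6 samples without it. Samples of the same number did not deviate together (correlations -0.02, -0.19 and -0.10). The cancers differ widely among themselves, so these values cannot exclude a factor shared by samples of the same number. Itga4 and Itgb3 kept their call in every alternative in which they were tested, with adjusted p up to 0.049 and 0.041 (limma), and did not reach the mean FPKM of 5. Both passed the filter on low values only through the cancers, where they were high, so these calls lend no support of their own. Signs reversed in Itgav and Lamb2 with TPM (0.49 and 0.24), in Itga8 with TPM (0.22) and on leaving out single samples (range -0.40 to 0.10), in Itgae with quantile normalization (-0.17) and on leaving out single samples (-0.083 to 0.48), in Lama2 with quantile normalization (-0.23), with array weights (-0.47) and on leaving out single samples (-0.10 to 0.17), and in Lama4 with quantile normalization (-0.047), none past the threshold in any of these. Of the single-chain values under the alternatives, 392 kept direction and side of the threshold, 29 came to pass it, 20 ceased to pass it and 14 reversed. The cause was not tested. Rounding to whole FPKM and unknown depth limit every chain at FPKM of a few units.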
